A study of Homo sapiens with 4 samples.

Results

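The genes described here are 9 genes by which a cell detects foreign or misplaced nucleic acid and answers to interferon, measured by RNA-seq in Daoy, an established cell line of human medulloblastoma, a tumour of the cerebellum. They were taken by symbol from the deposited transcript names, under the older names DDX58 (now RIGI), MB21D1 (now CGAS) and TMEM173 (now STING1), and all 9 were found among 58174 genes. The others are IFIH1, TLR3, MAVS, STAT2, IFNAR1 and IFNGR1. All 9 passed the filter on low counts, which left 18349 genes. The data comprised 2 libraries of Daoy cells labelled EED-knockout and 2 of wild type Daoy cells, with no treatment named. EED belongs to the core of Polycomb repressive complex 2, which places the silencing histone mark H3K27me3, and the comparison set cells with mutant EED against cells with the intact gene. The labels used here state neither how the knockout was made nor whether libraries are separate clones or cultures. The p-values thus reflect variation among these 4 libraries, part or all of which may be technical.

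Nucleic acid sensing works as a relay. DDX58 and IFIH1 are helicases that bind foreign or double-stranded RNA in the cytosol and pass the signal through MAVS, an adaptor on mitochondria, while TLR3 reads double-stranded RNA in endosomes. MB21D1 makes the messenger cGAMP when it meets DNA in the cytosol, and TMEM173 receives that messenger on the endoplasmic reticulum. These routes switch on interferon genes, and secreted type I interferon acts back through receptors such as IFNAR1 on transcription factors such as STAT2, which raise a large set of interferon-stimulated genes that includes several of the sensors themselves. IFNGR1 is the ligand-binding receptor chain for type II interferon.

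The libraries held 19022736 and 18164045 estimated counts for EED-knockout and 19106382 and 17836112 for wild type. The EED messenger was present in all of them, at 17.9 and 26.2 CPM (counts scaled to the normalised library size) in EED-knockout and 34.5 and 27.7 CPM in wild type libraries, and the genotypes did not overlap. Its log2 fold change was -0.49 (adjusted p = 0.878 by edgeR's quasi-likelihood test). An edit that leaves the messenger in place is not read by its level, so this value does not check the labels. Of 12 neural and medulloblastoma markers 11 were tested and ATOH1 had 0 counts in every library. Their summed level was 4403 and 4316 CPM in EED-knockout and 4587 and 4008 CPM in wild type libraries, most of it from VIM. Of the 11 tested, 3 had log2 fold changes below 0, against 49.1 percent of all genes, and 8 above. MAP2 was higher, with 34 and 19 counts in EED-knockout against 5 and 6 in wild type (log2 fold change 2.18, edgeR adjusted p = 0.799). Of 10 blood and immune cell markers, 8 had at most 10 counts in each library, CD3E among them at 0 throughout, and most of the list's summed 32.1 to 42.8 CPM in EED-knockout and 23.3 to 41.9 CPM in wild type came from CD68. The 5 endothelial markers summed to 142 and 26.6 CPM in EED-knockout and 69.1 and 78.9 CPM in wild type, and KDR had 1782 counts in EED-knockout 1 against 7 in EED-knockout 2 and 34 and 16 in wild type. EED-knockout 1 stood apart in KDR and, at far fewer counts, in CDH5, with 42 counts against 1 in EED-knockout 2 and 3 and 6 in wild type. PECAM1 had 28 and 12 counts in EED-knockout against 11 and 68 in wild type. VWF had 8 and 2 in EED-knockout against 13 and 8 in wild type. TIE1 was lower in both EED-knockout libraries and lowest in EED-knockout 2, at 44.2 and 25.4 CPM in EED-knockout against 65.8 and 73.5 CPM in wild type. None of the 5 endothelial markers was at 0 in all libraries, and their part in the results was not tested.

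None of the 9 genes passed the test over all genes. edgeR's quasi-likelihood test with Benjamini-Hochberg adjustment called 0 of 18349 genes at an adjusted p under 0.05, a background of 0 percent, with 1082 genes, 5.90 percent, at an unadjusted p under 0.05. DESeq2 called 79 genes, 0.400 percent of those it adjusted, and none of the 9. At an unadjusted p under 0.05 edgeR found 2 of the 9 lower in EED-knockout cells, DDX58 and IFIH1, and 0 higher, where 3.05 percent of all genes were lower and 2.85 percent higher at that level. Both EED-knockout libraries lay below both wild type libraries in CPM for 3 of the 9 (DDX58, IFIH1 and IFNAR1), against 18.0 percent of all genes, and above them for 0 of the 9, against 17.8 percent. The median log2 fold change was -0.32 for the 9 genes, -0.07 without EED-knockout 1, -0.76 without EED-knockout 2 and -0.64 without wild type 2, and 0.01 for all genes tested. In these bulk libraries, fewer cells that express a gene and less RNA per cell cannot be told apart. These counts describe the 9 genes and are no test of them.

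**Figure D1:**
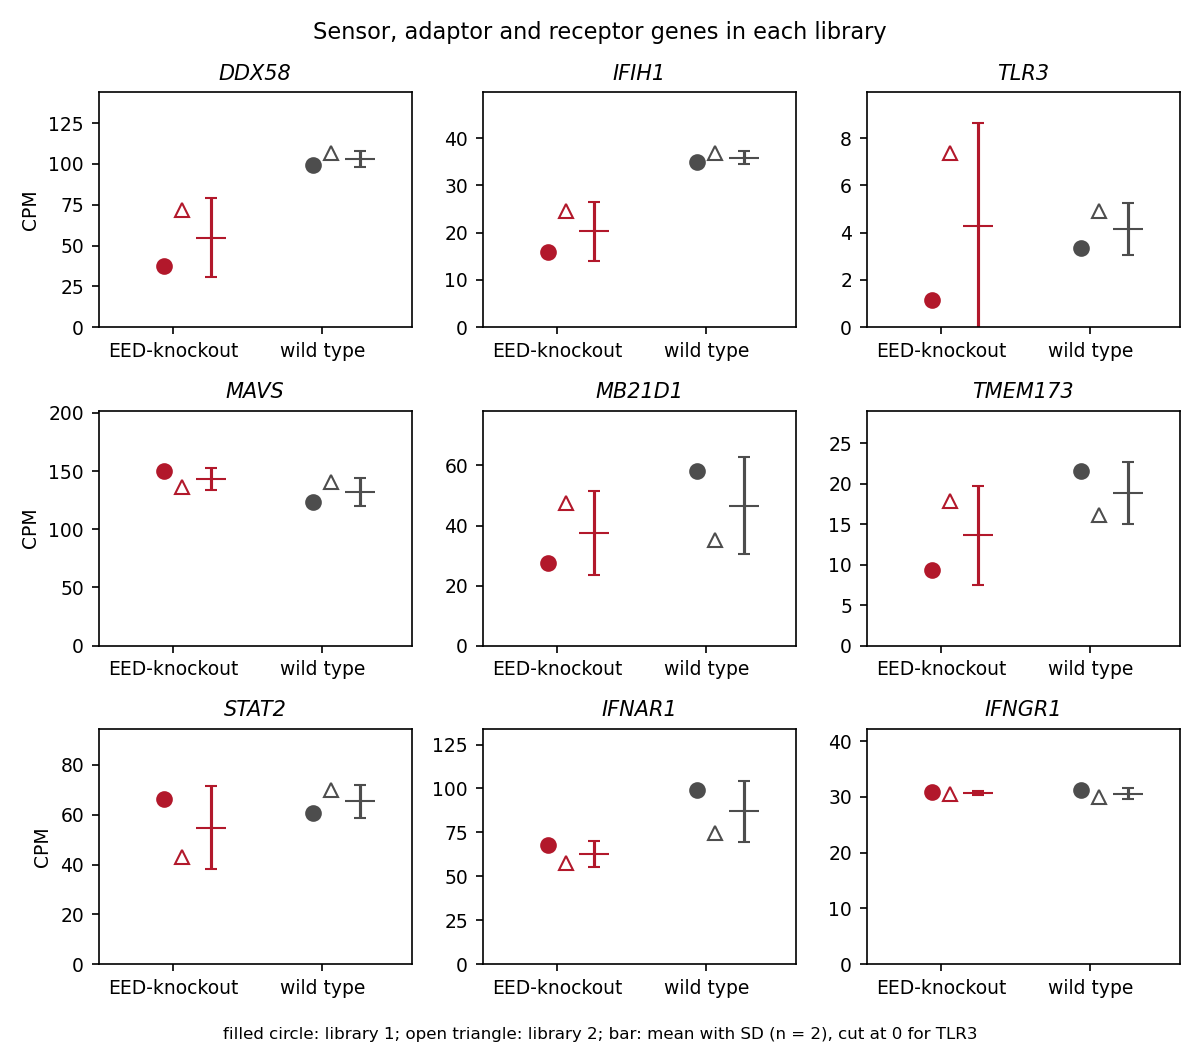
CPM of the 9 genes in each library, with EED-knockout at the left and wild type at the right of each panel, and the mean with SD (n = 2 each) beside the points (the TLR3 bar stops at 0). DDX58 and IFIH1 were lower in both EED-knockout libraries, IFNGR1 lay near 30 CPM in all 4, and TLR3 was at 1.16 and 7.37 CPM in the EED-knockout libraries, on either side of wild type.

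The cytosolic RNA helicases had the smallest p-values of the 9, and both were lower in EED-knockout cells without passing the adjusted threshold. DDX58 (ENSG00000107201; chromosome 9, 32455705 to 32526324, minus strand, GRCh38), the sensor RIG-I, had 37.7 and 71.8 CPM in EED-knockout libraries 1 and 2, against 99.6 and 106.7 CPM in wild type libraries 1 and 2. The genotypes did not overlap, and EED-knockout 1 was much the lowest. Means were 54.7 ± 24.1 CPM in EED-knockout and 103.1 ± 5.06 CPM in wild type cells (SD, n = 2 each). The log2 fold change was -0.92 (95% interval -1.64 to -0.19; edgeR adjusted p = 0.800, unadjusted p = 0.0208), or 53.0% of the wild type level.

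IFIH1 (ENSG00000115267; chromosome 2, 162267079 to 162318703, minus strand), the sensor MDA5, which prefers long double-stranded RNA, had 15.9 and 24.7 CPM in EED-knockout libraries against 34.95 and 36.9 CPM in wild type libraries. It repeated the order of DDX58, with EED-knockout 1 lowest, EED-knockout 2 between and the wild type pair close together. The log2 fold change was -0.82 (95% interval -1.45 to -0.20; edgeR adjusted p = 0.799, unadjusted p = 0.0173), and the level 56.5% of wild type. On the TPM scale, which divides by effective length, neither gene overlapped between genotypes either: DDX58 averaged 20.5 ± 9.27 TPM in EED-knockout and 36.0 ± 4.64 TPM in wild type, and IFIH1 10.6 ± 2.91 TPM in EED-knockout and 16.8 ± 1.09 TPM in wild type (SD, n = 2 each).

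Both differences were larger in EED-knockout 1. Against the wild type mean, DDX58 lay at -1.45 in EED-knockout 1 and -0.52 in EED-knockout 2 on the log2 CPM scale, and IFIH1 at -1.17 and -0.54. Without EED-knockout 1 the log2 fold change was -0.52 for DDX58 and -0.54 for IFIH1, and without EED-knockout 2 it was -1.46 and -1.18. The median gene of arm 9p differed by -0.03 (EED-knockout minus wild type) and that of arm 2q by 0.05 on the log2 scale. By library, the 9p median lay at -0.26 and 0.20 in EED-knockout and 0.04 and -0.03 in wild type. The 2q median lay at -0.04 and 0.09 in EED-knockout and 0.08 and -0.13 in wild type (log2 CPM deviation less that of all genes). Like DDX58, the 9p median was lowest in EED-knockout 1, and its part in that gene's library difference was not tested. With each arm's median per library taken as an offset the log2 fold changes were -0.94 for DDX58 and -0.90 for IFIH1.

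Most reads of these helicases were assigned to their longest coding transcripts. DDX58-001 (4353 bases) had 679 and 1243 estimated counts in EED-knockout and 1758 and 1844 in wild type libraries, while DDX58-002 had 36.4 and 100.3 in EED-knockout and 50.6 and 85.9 in wild type libraries. IFIH1-001 (3595 bases) had 253 and 416 estimated counts in EED-knockout against 590.0 and 622 in wild type libraries, and the shorter coding transcript IFIH1-002 had 48.9 and 45.2 in EED-knockout against 40.4 and 45.3 in wild type libraries. The genotypes were thus separate for the long transcript of each helicase and overlapped for DDX58-002 and IFIH1-002. These long forms were the 2 transcripts at an unadjusted p under 0.05 (0.0424 for DDX58-001 and 0.0400 for IFIH1-001) among 24 tested of 49 listed for the 9 genes, against 4.64 percent of all 56858 transcripts tested. No transcript passed edgeR's test over all transcripts (0 percent called, adjusted p = 1 for all 24).

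The promoters of the RNA sensors are shown because DDX58 and IFIH1 had the same order of libraries and TLR3 did not. RefSeq windows on GRCh38.p14 were matched for 7 of the 9 genes; MB21D1 and TMEM173 had no entry. Each window runs from 250 bases before the transcript start, and capitals mark matches, on either strand and with overlaps kept, to GAAA followed after any 2 bases by GAAA, a core of the interferon-stimulated response element bound by complexes of STAT2 and IRF9, or to TTCNNNGAA, a core of the gamma-activated sequence. The IFIH1 stretch (chr2:162318685-162318934, minus strand) and the DDX58 stretch (chr9:32526197-32526446, minus strand) end at the base before the start, and the TLR3 stretch (chr4:186068906-186069161, plus strand) runs on to the end of a match that spans the start.
IFIH1: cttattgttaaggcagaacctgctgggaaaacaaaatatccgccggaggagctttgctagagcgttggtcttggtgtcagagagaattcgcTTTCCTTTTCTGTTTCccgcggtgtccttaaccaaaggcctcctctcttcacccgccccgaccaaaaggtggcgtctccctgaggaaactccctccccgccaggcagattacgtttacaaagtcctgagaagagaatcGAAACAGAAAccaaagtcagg
DDX58: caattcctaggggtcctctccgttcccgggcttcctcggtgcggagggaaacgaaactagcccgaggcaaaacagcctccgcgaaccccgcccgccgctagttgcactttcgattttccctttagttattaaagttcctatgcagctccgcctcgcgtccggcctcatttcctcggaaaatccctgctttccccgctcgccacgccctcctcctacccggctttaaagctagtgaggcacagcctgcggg
TLR3: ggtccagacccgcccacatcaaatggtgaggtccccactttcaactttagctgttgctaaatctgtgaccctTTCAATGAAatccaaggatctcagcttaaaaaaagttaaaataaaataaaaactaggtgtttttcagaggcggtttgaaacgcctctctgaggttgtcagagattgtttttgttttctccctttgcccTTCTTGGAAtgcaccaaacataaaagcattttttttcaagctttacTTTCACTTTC
IFIH1 held 3 matches to the first core, a pair that overlap at 159 to 144 bases before the start and 1 at 21 to 12 bases before it. TLR3 held 1 match to it across the start and 2 to the second core, at 178 and 50 bases before the start. The DDX58 stretch held neither, and the windows of MAVS, STAT2, IFNAR1 and IFNGR1 held neither. Among all 35116 RefSeq windows 3.57% held the first core and 7.66% held the second. Among the interferon-stimulated effector genes listed below, 19 of the 27 with an entry held the first core in any of their windows. That count is by gene, whereas the shares over all windows are by window. The letters say nothing on whether a factor was bound.

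TLR3 (ENSG00000164342; chromosome 4, 186069152 to 186088069), the endosomal RNA receptor, was the least abundant of the 9 per length and the most uneven on the log2 scale. It had 22 and 138 counts in EED-knockout and 61 and 89 in wild type libraries, or 1.16 and 7.37 CPM in EED-knockout against 3.36 and 4.92 CPM in wild type. The EED-knockout libraries lay on either side of both wild type libraries, and the log2 fold change of 0.04 (95% interval -1.76 to 1.85; edgeR adjusted p = 0.997) stands between -1.84 without EED-knockout 2 and 0.83 without EED-knockout 1. The fold change was below 0 under 5 of 15 alternatives, among them limma-voom. A direction for TLR3 could not be given from these libraries.

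MAVS (ENSG00000088888; chromosome 20, 3846799 to 3876123), which both cytosolic helicases need, had the highest count of the 9. It stood at 149.6 and 136 CPM in EED-knockout against 124 and 141 CPM in wild type libraries, and the genotypes overlapped. The log2 fold change was 0.11 (95% interval -0.33 to 0.56; edgeR adjusted p = 0.960). MAVS-001, a coding transcript of 11714 bases, took 92.7% and 91.4% of its counts in EED-knockout and 93.7% and 90.7% in wild type libraries. Per length the gene was at 17.2 ± 1.22 TPM in EED-knockout and 15.2 ± 2.44 TPM in wild type cells (SD, n = 2 each). The interval of its fold change excludes the fitted value of DDX58 and that of IFIH1, but the difference between the genes was not tested.

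The DNA-sensing pair overlapped between genotypes. MB21D1 (ENSG00000164430; chromosome 6, 73413515 to 73452276), the enzyme cGAS, had 27.7 and 47.4 CPM in EED-knockout against 58.0 and 35.3 CPM in wild type libraries. TMEM173 (ENSG00000184584; chromosome 5, 139475534 to 139482935), the adaptor STING, had 9.32 and 17.9 CPM in EED-knockout against 21.5 and 16.2 CPM in wild type libraries. For both genes EED-knockout 1 was the lowest and wild type 1 the highest library, with EED-knockout 2 and wild type 2 between. The log2 fold changes were -0.32 (95% interval -1.12 to 0.49) for MB21D1 and -0.47 (95% interval -1.31 to 0.38) for TMEM173, with edgeR adjusted p of 0.937 and 0.897.

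Both genes sit on arms whose median gene was lower on average in EED-knockout than in wild type libraries, with log2 differences of -0.21 on 6q and -0.37 on 5q. On arm 6q the median of 243 genes lay at -0.30 and 0.10 in EED-knockout and 0.21 and 0.01 in wild type libraries, and on arm 5q the median of 440 genes lay at -0.25 and -0.10 in EED-knockout and 0.30 and 0.09 in wild type libraries (log2 CPM deviation less that of all genes). With those medians as offsets the log2 fold change was -0.12 for MB21D1 and -0.11 for TMEM173. Whether the arms differ in DNA copy number was not tested. Without EED-knockout 1 the values were 0.02 for MB21D1, which turns its direction, and -0.07 for TMEM173.

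TMEM173 reads were spread over transcripts that code and transcripts that retain introns. Coding transcripts took 48.8% and 37.1% of its counts in EED-knockout and 47.1% and 56.3% in wild type libraries. TMEM173-001 (1771 bases), the leading coding form, had 68.9 and 100.5 estimated counts in EED-knockout against 157.5 and 128 in wild type libraries, while the retained-intron form TMEM173-002 had 65.9 and 147 in EED-knockout against 164.5 and 106 in wild type libraries. The coding form did not overlap between genotypes and the retained-intron form did, with log2 fold changes of -0.81 and -0.40 that did not pass edgeR's test (adjusted p = 1 for each). MB21D1 was almost wholly MB21D1-002 (3182 bases), with 491 and 830.3 counts in EED-knockout and 1049 and 623 in wild type libraries. The shorter MB21D1-001 had 30.7 and 54.9 in EED-knockout against 0 and 9.88 in wild type libraries, and it too did not pass (adjusted p = 1). DDX43, which overlaps MB21D1 on the opposite strand over 4055 bases, had 0.263 and 0.374 CPM in EED-knockout and 0.165 and 0.0553 CPM in wild type libraries.

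**Figure D2:**
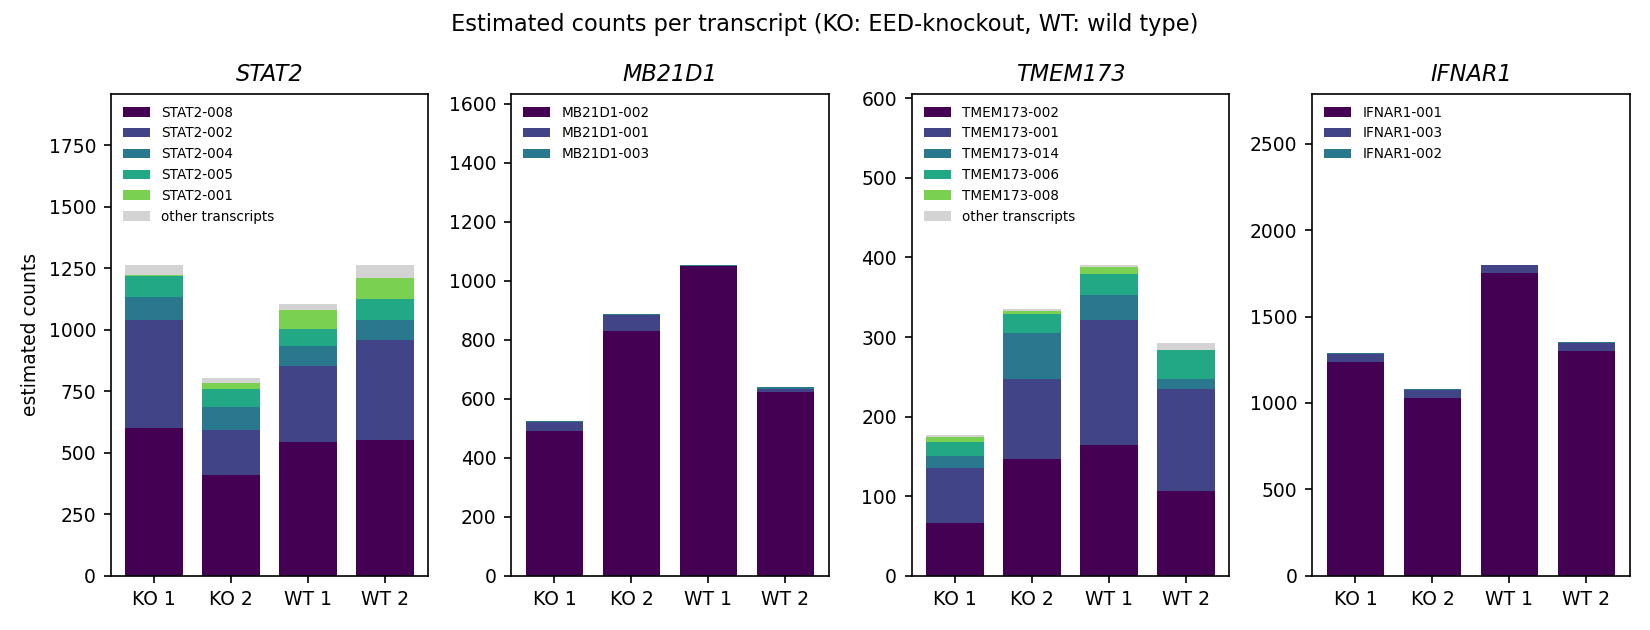
Estimated counts per transcript of STAT2, MB21D1, TMEM173 and IFNAR1, stacked for each library, with EED-knockout (KO) at the left and wild type (WT) at the right. MB21D1 and IFNAR1 are almost wholly 1 transcript each, whereas STAT2 and TMEM173 are divided among coding and noncoding forms.

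STAT2 (ENSG00000170581; chromosome 12, 56341597 to 56360155), which joins IRF9 in the complex that answers type I interferon, had 66.5 and 43.0 CPM in EED-knockout against 60.7 and 69.95 CPM in wild type libraries. Here EED-knockout 2 was the low library and EED-knockout 1 lay within the wild type range, whereas EED-knockout 1 was the lowest library for both helicases. The log2 fold change was -0.25 (95% interval -0.85 to 0.34; edgeR adjusted p = 0.929), -0.60 without EED-knockout 1 and 0.02 without EED-knockout 2. IRF9 stood at 13.2 and 17.7 CPM in EED-knockout against 10.2 and 18.9 CPM in wild type libraries, and the genotypes overlapped.

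Of the 12 STAT2 transcripts listed, STAT2-008, labelled a processed transcript without a coding frame, had the most counts, 601 and 410 in EED-knockout and 545 and 553 in wild type libraries. Coding transcripts together took 42.2% and 37.3% of STAT2 counts in EED-knockout and 42.3% and 45.3% in wild type libraries. The coding form STAT2-001 had 1.80 and 24.9 estimated counts in EED-knockout against 76.9 and 85.9 in wild type libraries, the largest fold change among the STAT2 forms tested, -2.64 on the log2 scale, which did not pass edgeR's test (adjusted p = 1). kallisto divides reads between such overlapping forms by a model, so these shares are less certain than the gene's sum.

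The receptor chains are given together. IFNAR1 (ENSG00000142166; chromosome 21, 33324477 to 33359862), a chain of the type I receptor, had 67.8 and 57.6 CPM in EED-knockout against 99.1 and 74.8 CPM in wild type libraries. Both EED-knockout libraries lay below both wild type libraries, with EED-knockout 2 lowest. The log2 fold change was -0.47 (95% interval -0.99 to 0.05; edgeR adjusted p = 0.855, unadjusted p = 0.0682). IFNGR1 (ENSG00000027697; chromosome 6, 137197484 to 137219449) had 31.0 and 30.5 CPM in EED-knockout against 31.3 and 29.9 CPM in wild type libraries, the narrowest range of the 9. Its log2 fold change was 0.01 (95% interval -0.46 to 0.48; edgeR adjusted p = 0.998), so a difference of the size fitted for IFNAR1 lies just outside that interval. No test of the difference between the chains was made.

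IFNAR1 lies among 3 other receptor genes on arm 21q, between 33229901 and 33479348, and all 4 had log2 fold changes below 0. In order along the chromosome the log2 fold changes were -0.23 for IFNAR2, the partner chain of IFNAR1, -0.31 for IL10RB, a chain shared by interleukin-10 and lambda interferon receptors, -0.47 for IFNAR1 and -0.55 for IFNGR2, the partner of IFNGR1. None passed edgeR's test (adjusted p from 0.826 to 0.940). The arm's 122 genes had medians of -0.03 and -0.35 in EED-knockout and 0.25 and 0.12 in wild type libraries, and with those as offsets the log2 fold changes were 0.12, 0.08, -0.10 and -0.19 in the same order. IFNGR1, on arm 6q, was 0.23 with its arm's offset.

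Whether the genotypes overlapped for the receptor chains depended on the scale. In TPM the IFNAR1 libraries overlapped, at 40.2 and 34.2 in EED-knockout against 39.4 and 43.7 in wild type libraries. The main coding transcript, IFNAR1-001 (6139 bases), took 95.9% and 95.5% of the gene's counts in EED-knockout and 97.4% and 96.1% in wild type libraries, but 40.8% and 41.1% of its TPM in EED-knockout and 55.3% and 41.4% in wild type libraries. That transcript alone stood at 16.4 and 14.1 TPM in EED-knockout against 21.8 and 18.1 TPM in wild type libraries, with no overlap. The rest of the TPM came from forms of 491 bases, with 46.4 and 46.0 counts in EED-knockout and 43.6 and 46.2 in wild type libraries, and 250 bases, with 3 to 7 counts in each library. IFNGR1, level in CPM, stood at 26.7 and 26.5 TPM in EED-knockout against 23.4 and 24.9 TPM in wild type libraries, with no overlap.

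**Figure D3:**
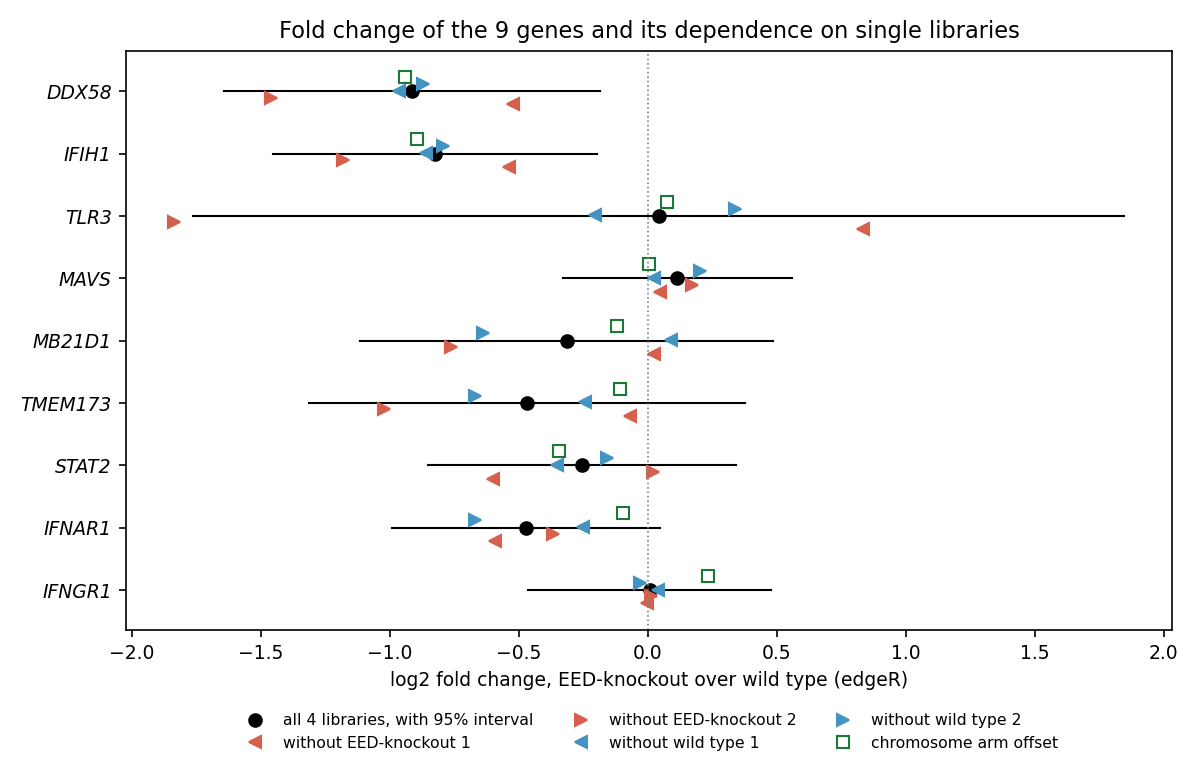
Log2 fold change of each gene, EED-knockout over wild type, from edgeR with all 4 libraries and its 95% interval (black), with each library left out (coloured triangles) and with chromosome arm medians as offsets (open squares). DDX58 and IFIH1 stay below 0 throughout, and TLR3 spans -1.84 to 0.83. With the arm offset MB21D1, TMEM173, IFNAR1 and MAVS move towards 0. The others move away from it, STAT2 to -0.34 and IFNGR1 to 0.23.

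Set side by side per length, the 9 genes ranged from 2.85 to 37.2 mean TPM in EED-knockout and from 2.09 to 41.5 mean TPM in wild type cells. In EED-knockout cells the order was IFNAR1 (37.2 TPM), STAT2 (36.4), IFNGR1 (26.6), DDX58 (20.5), MB21D1 (19.7), MAVS (17.2), TMEM173 (13.6), IFIH1 (10.6) and TLR3 (2.85). Only STAT2 and IFNGR1, and IFIH1 and TLR3, were neighbours in that order whose libraries did not overlap. In wild type cells the order was IFNAR1 (41.5 TPM), STAT2 (40.0), DDX58 (36.0), IFNGR1 (24.1), MB21D1 (22.3), IFIH1 (16.8), TMEM173 (16.6), MAVS (15.2) and TLR3 (2.09). There the libraries of neighbours were separate for DDX58 and IFNGR1, MB21D1 and IFIH1, and MAVS and TLR3. By mean TPM, DDX58 thus stood below IFNGR1 in EED-knockout cells and above it in wild type cells, and IFIH1 below MAVS in EED-knockout cells and above it in wild type cells.

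Likeness of each gene to the 94 other tested genes of the pathway was measured as the Euclidean distance between log2 CPM profiles centred on their mean over the 4 libraries. The profile nearest to DDX58 was that of SAMHD1, a dNTP hydrolase that restricts viruses (distance 0.08), followed by IFIH1 (0.25). IFIH1 was nearest to SAMD9L (0.21) and DDX58 (0.25), and MB21D1 to TMEM173 (0.32). TMEM173 itself was nearer to RNASET2 (0.28) than to MB21D1. IFNAR1 was nearest to its chromosomal neighbour IL10RB (0.246), closely followed by GBP1 on chromosome 1 (0.254). STAT2 was nearest to MX1 (0.28), and MAVS to the kinase TBK1 (0.08). The distances are not scaled to how much a gene varies: DDX58 itself lay 1.19 from a flat profile, IFIH1 0.965, MB21D1 0.812, IFNAR1 0.569, STAT2 0.546 and MAVS 0.200. TLR3, 1.90 from a flat profile, was nearest to IFI27 (0.52). IFNGR1 lay 0.048 from a flat profile and 0.050 from TRIM25, so its nearest gene was no closer than no variation at all. With 4 libraries these distances describe the samples and carry no test.

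The other genes of the pathway were read by role. Of 14 other nucleic acid sensors 11 were tested, edgeR called 0, and 7 of the 11 had log2 fold changes below 0, against 49.1 percent of all genes, with a median of -0.41, or -0.15 without EED-knockout 1 and -0.23 without wild type 1. Both EED-knockout libraries lay below both wild type libraries in 5 of the 11 and above in 1, against 18.0 and 17.8 percent of all genes. OAS2, which makes the 2-5A messenger on double-stranded RNA, had a log2 fold change of -1.80 (95% interval -2.98 to -0.62), with 2.53 and 7.21 CPM in EED-knockout against 13.9 and 20.1 CPM in wild type libraries. In TPM its genotypes overlapped, at 1.66 and 6.21 in EED-knockout against 5.72 and 10.7 in wild type libraries. AIM2, a DNA sensor of inflammasomes, had -1.27 (95% interval -2.15 to -0.39), with 3.16 and 5.61 CPM in EED-knockout against 10.2 and 10.95 CPM in wild type libraries. The DNA sensor IFI16 (-0.49) and the RNA-activated kinase EIF2AK2 (-0.41) were lower by less, and none passed edgeR's test (adjusted p from 0.799 to 0.865). DHX58, another helicase of the RIG-I family, had 48 and 142 counts in EED-knockout against 137 and 158 in wild type libraries. TLR7, TLR8 and TLR9 had at most 3 counts in each library.

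Among the 9 nucleases and editors that limit sensing, both EED-knockout libraries lay below both wild type libraries in 1 and above in 0. Over all genes the shares were 18.0 and 17.8 percent. Their median log2 fold change was -0.07, with 6 below 0, against 49.1 percent of all genes, and 0 called. The sign of that median turned with 1 library: it was 0.05 with 3 of 9 below 0 without EED-knockout 1, and -0.31 with 8 of 9 below 0 without EED-knockout 2. SAMHD1, at 12.2 and 25.01 CPM in EED-knockout against 33.9 and 35.1 CPM in wild type libraries, had -0.89 (95% interval -1.71 to -0.08; edgeR adjusted p = 0.808). The other 3 with the smallest p-values were RNASET2 (-0.40), DNASE2 (0.26) and RNASEH2C (0.07), and their intervals included 0. Among the 14 genes that relay the signal from the sensors, both EED-knockout libraries lay below both wild type libraries in 3 and above in 3. Their median was 0.03, with 4 below 0, against 49.1 percent of all genes, and 0 called. Without EED-knockout 1 it was -0.03 with 8 of 14 below 0, and over the other omissions it lay between 0.02 (without wild type 1) and 0.08 (without wild type 2). With the arm offset, and with length-scaled TPM counts, 7 of 14 were below 0. TANK, which links TRAF3 to its kinases, had -0.68 (95% interval -1.27 to -0.09) and the kinase IKBKE -0.48 (95% interval -0.996 to 0.03), while the ubiquitin ligase TRAF6 had 0.43 and the palmitoyltransferase ZDHHC1 0.32. Their edgeR adjusted p ranged from 0.808 to 0.901.

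Among the 9 other receptor and JAK-STAT genes, both EED-knockout libraries lay below both wild type libraries in 2 and above in 1. Over all genes the shares were 18.0 and 17.8 percent. Their median was -0.09, with 5 below 0, against 49.1 percent of all genes, and 0 called. That median was 0.01 without EED-knockout 1, -0.06 without wild type 1, -0.14 without either other library, 0.08 with the arm offset and -0.27 with length-scaled TPM counts, so it had no steady direction. IFNLR1, the lambda interferon receptor chain, was at 0.45 (95% interval -0.35 to 1.26). Of 12 brakes on the pathway 11 were tested, with 0 called and 8 below 0. Their median was -0.11, or -0.05 without EED-knockout 1 and -0.03 without wild type 2. Both EED-knockout libraries lay below both wild type libraries in 2 of these 11 and above in 1. SOCS3, an inhibitor of JAK kinases, was at 0.32, the ubiquitin-like protein ISG15 at -0.64, NLRC3 at -0.59 and the phosphatase PTPN2 at -0.14, with edgeR adjusted p from 0.894 to 0.955. ISG15 had 29.7 and 90.6 CPM in EED-knockout against 81.1 and 106.3 CPM in wild type libraries. It was low in EED-knockout 1 alone, as was DHX58.

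Interferon ligands were at or near 0 in every library. Of 10 ligand genes, 7 had 0 counts throughout, among them IFNB1, IFNA1, IFNA2 and IFNG, and 3 counts would stand for 0.158 to 0.160 CPM in EED-knockout and 0.165 to 0.166 CPM in wild type libraries (counting error only). The remaining ligands, IFNW1, IFNL1 and IFNL3, had at most 3 counts in each library. No ligand gene passed the filter on low counts, so none was tested in the main fit.

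Most interferon-stimulated effectors lay lower in EED-knockout libraries, chiefly in EED-knockout 1. Of 32 effector genes, all tested, 29 had log2 fold changes below 0, against 49.1 percent of all genes. Both EED-knockout libraries lay below both wild type libraries in 15 of the 32 and above in 0, against 18.0 and 17.8 percent of all genes, and the median was -0.61. edgeR called 0 of them, while 11 were lower at an unadjusted p under 0.05, against 3.05 percent of all genes. The 4 with the smallest p-values were the guanylate-binding protein GBP4 (-2.04), the chemokine CXCL11 (-3.04), and the antiviral RNA-binding proteins IFIT2 (-1.50) and IFIT1 (-1.23), with edgeR adjusted p from 0.489 to 0.799. The list's median deviation from wild type was -1.23 in EED-knockout 1 and -0.19 in EED-knockout 2, against -0.14 and 0.14 in wild type libraries. Without EED-knockout 1 the median was -0.21 with 25 of 32 genes below 0, and without EED-knockout 2 it was -1.25 with 30 of 32. OAS2, GBP4, CXCL11 and IFIT2 were the listed genes that DESeq2 called (DESeq2 adjusted p of 0.0411, 1.96e-07, 0.0159 and 0.00285). They were 4 of the 87 genes of the pathway lists that it adjusted, against 0.400 percent of all genes. CXCL11 had few counts, 8 and 9 in EED-knockout against 78 and 58 in wild type libraries. GBP4 had 13.9 and 23.6 CPM in EED-knockout against 70.4 and 84.2 CPM in wild type libraries.

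**Figure D4:**
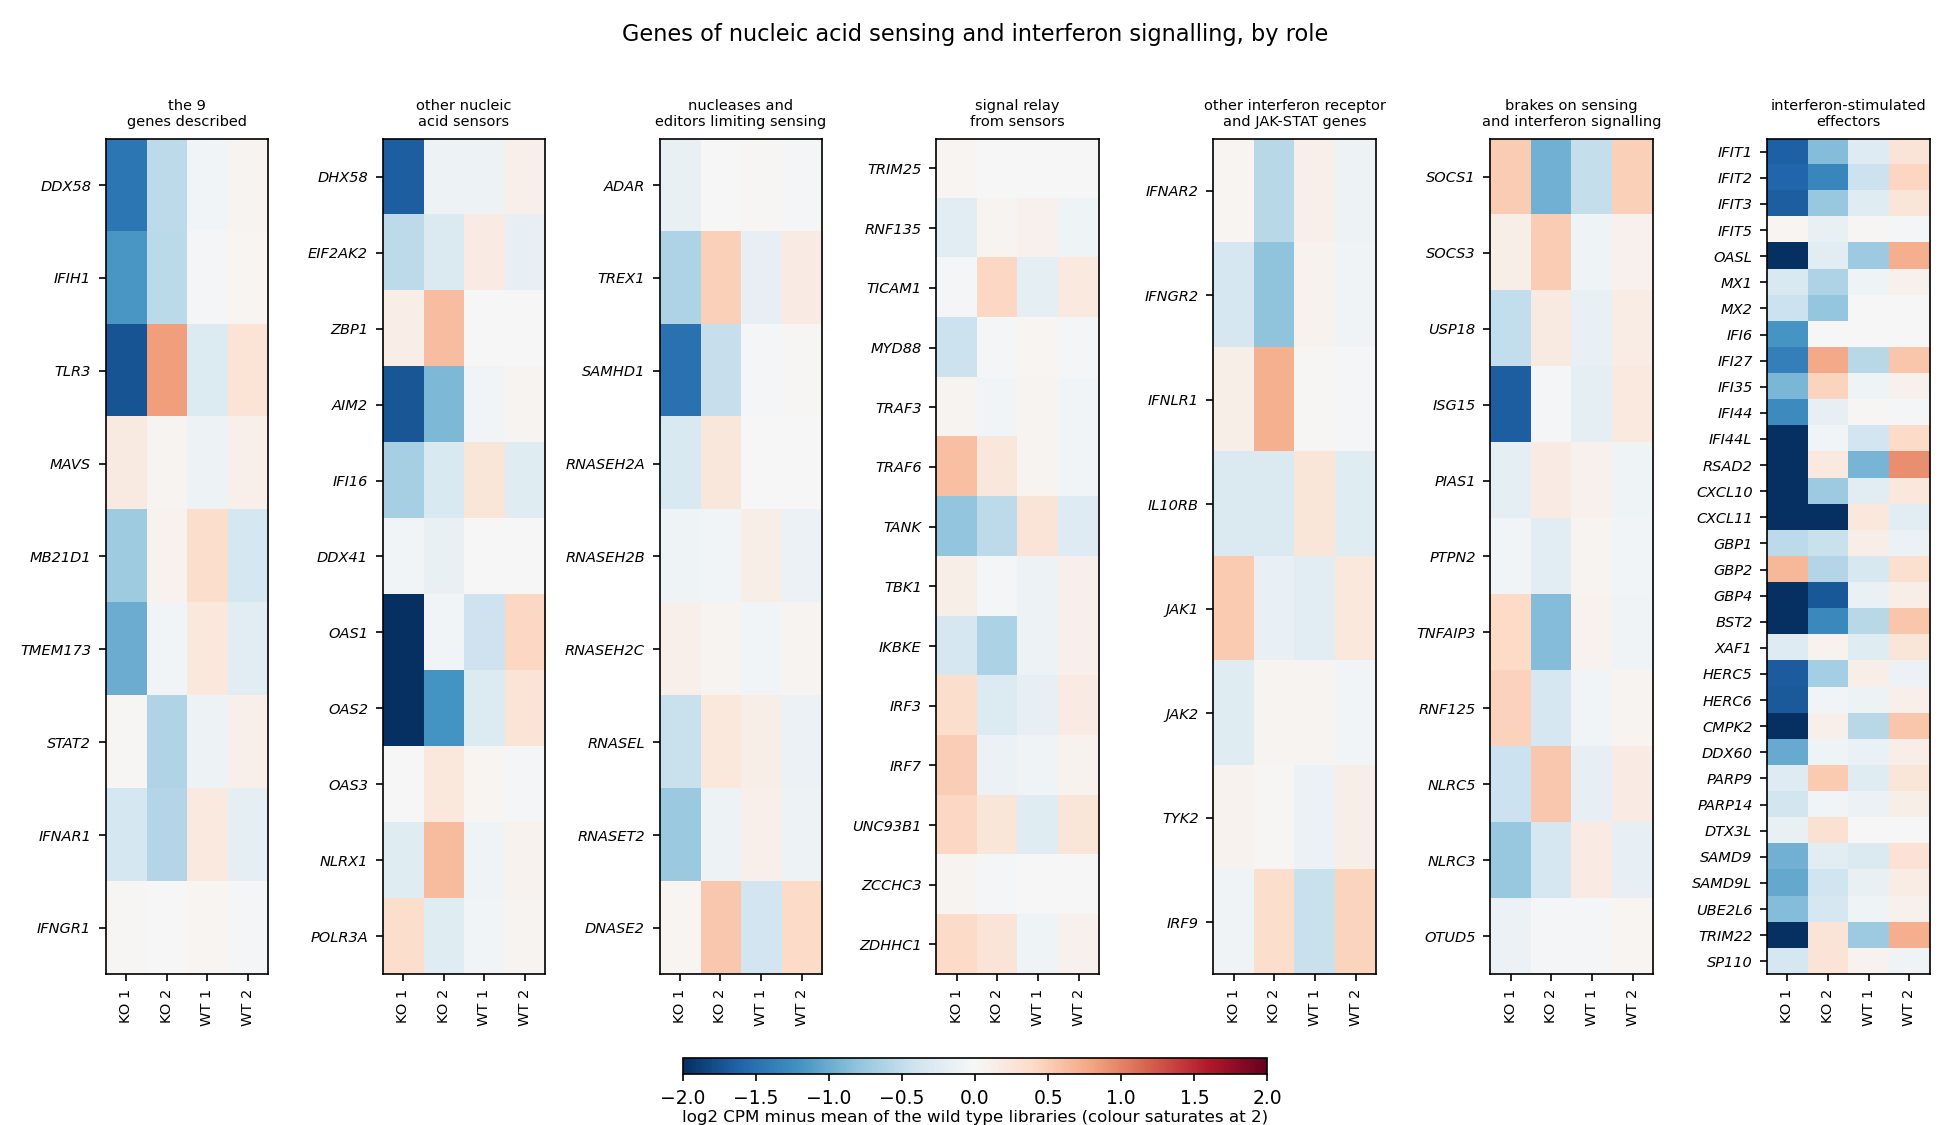
Log2 CPM of tested genes less the mean of the wild type libraries, by role, with EED-knockout (KO) columns at the left and wild type (WT) columns at the right of each panel. Blue fills much of the EED-knockout 1 column among the effectors and in DDX58, IFIH1, DHX58 and AIM2, is paler in EED-knockout 2, and is scarce among the genes that relay the signal.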

How the data were processed

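Daoy RNA was taken up in TRIZOL and purified on RNeasy columns before 4 libraries were prepared with a kit from Illumina, per the labels' protocols. The deposited estimated counts give fragments assigned to each transcript by kallisto 0.43.1 on build hg38, per the submitters' processing notes, and the deposited TPM values are divided by effective length, per the file headers. The labels and file headers used here do not state strandedness, annotation release or run settings. Each file listed 199324 transcripts. Positions came from GENCODE 29 on GRCh38, the same build, for 57836 of 58174 genes.

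Estimated counts were summed per gene, rounded to whole numbers and tested by quasi-likelihood F tests in edgeR 4.0.16 (R 4.3.3; TMM factors, filterByExpr with minimum count 10 and minimum total 15, no covariate, two-sided), with Benjamini-Hochberg adjustment over all genes and a threshold of 0.05. Transcripts were tested in the same way, and the test was checked on simulated data. The 95% intervals come from the same model. Log2 CPM used a prior count of 2. Genes entered the arm medians where their mean log2 CPM exceeded 3. Alternatives were RLE factors, no filter, DESeq2 1.42.0, limma 3.58.1 (voom, and trend on log2(TPM + 1) and log2(TPM + 0.1)), length-scaled TPM counts, replicate number as a block, protein-coding genes only, chromosome arm offsets and leaving out each library. A block with crossed numbers, which set EED-knockout 1 with wild type 2 and EED-knockout 2 with wild type 1, was a further alternative. Leaving out 1 library takes the spread from the other genotype, which the lone library is assumed to share. The 9 genes and the lists were chosen with earlier results of these data known. Genes named from the pathway lists were the 4 with the smallest edgeR p in each and, for each of the 9, the nearest profiles. DHX58, IRF9, TLR7, TLR8 and TLR9 fall outside that rule and were chosen after their values were seen. Genes named from the marker and ligand lists fall outside it too, and MAP2, KDR, TIE1, VIM and CD68 were named for their values. The values of 1 listed gene are not reported here.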

Additional observations from a re-analysis of the deposited data

How the results depend on the processing

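No alternative brought any of the 9 genes past an adjusted p of 0.05. Over 15 alternatives DDX58 ranged from -1.46 to -0.52 (smallest adjusted p 0.299, by DESeq2). IFIH1 ranged from -1.18 to -0.54 (smallest adjusted p 0.373, by edgeR with the crossed numbers), and both genes were below 0 in all. MAVS, TMEM173 and IFNAR1 kept their direction but came near 0. Their ranges were 0.004 to 0.20 for MAVS, -1.02 to -0.07 for TMEM173 and -0.67 to -0.10 for IFNAR1. IFNGR1 was -0.001 without the filter and from -0.032 to 0.040 when 1 library was left out. TLR3 was -0.42 with the replicate block, -0.39 with the crossed numbers and -0.47 with limma-voom, and from -1.84 to 0.83 when 1 library was left out. MB21D1 ranged from -0.762 to 0.088 and STAT2 from -0.60 to 0.02 over the same 4 omissions. The cause of these turns was not tested. edgeR called 0 to 23 genes when 1 library was left out (23 without EED-knockout 1, 19 without wild type 2 and 0 without either other library), and DESeq2 called 79 genes, 4 of them in the pathway lists, against 0 in each case by edgeR with all libraries.

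Replicate numbers are shared by the genotypes, but nothing in the labels says that they mark pairs. Deviations of the libraries numbered 1 from their genotype means correlated at -0.245 across 10899 genes, which is not a sign of pairing by number. With 2 libraries a genotype, crossing the numbers gives the same value with the opposite sign. At an unadjusted p under 0.05 edgeR found 768 genes with the replicate block and 1607 with the crossed numbers, against 1082 without a block. Why the crossed libraries deviated alike was not tested. The replicate block, and the crossed numbers that were added after seeing the data, called 0 genes at an adjusted p under 0.05, so neither changed a call.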
